A study of Mus musculus with 3 samples.

Results

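The Rab and Arf small GTPases of mouse distal colon are described here as 87 genes. They were taken by symbol, as every gene whose name is Rab, Arf, Arl or Sar1 followed by a member number and letter. No cutoff on level was applied, but the choice was made with earlier results of these data known. The set held 59 Rab genes, 6 Arf genes, 20 Arl genes and 2 Sar1 genes, out of 24346 gene symbols in the tables. The tables give polyadenylated RNA from whole distal colon of wild-type (WT) mice, strain labelled JAX, at 8 weeks and at steady state, with no treatment. All 3 files carry the same labels, so the series has 1 group and no contrast. The labels do not say whether the files came from separate libraries or separate animals. They are counted as 1 sample below, and agreement between files is not taken as replication between mice.

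Rab, Arf, Arl and Sar1 proteins are molecular switches that sit on a membrane in the GTP-bound form and are released from it in the GDP-bound form. Each marks a particular organelle or class of vesicle and recruits the coats, motors and tethers that move cargo to the next compartment. In the colon, absorptive cells use this machinery to sort proteins to the apical and basolateral surfaces, goblet cells to release mucin granules, and enteroendocrine cells and enteric neurons to release hormones and transmitters.

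Values are FPKM, fragments scaled to transcript length and to the mapped fragments of the library, summed over the isoforms of a gene. The confidence bounds of the tables imply a depth of 3780630, 3786220 and 1243460 mapped fragments in replicates 1, 2 and 3. The 3 tables differed by about sampling noise. In genes with 1 isoform, the median ratio of the observed variance to the sampling variance was 0.732 over the family members and 0.674 over all genes tested, and 0 of 59 members differed between files by a chi-square test with Benjamini-Hochberg adjustment at 0.05, against 0.0574% of all 8717 genes tested. At an unadjusted p of 0.05, 3 members (Arl5b, Rab10 and Rab1) passed, which was 5.08% of the members tested and 4.85% of all genes tested. The files are therefore counted as 1 sample. Each mean ± SD (n = 3 files) gives the scatter of the files, not a spread between mice. An SD of 3 values can by chance fall well below the counting error. Rab9 (27.9 ± 0.292 FPKM) had a variance ratio of 0.0141 and only 45.0 fragments in replicate 3. The labelled tissue carried its markers. Summed FPKM over the lists was 5035 to 5105 for general epithelium, 1988 to 2033 for colonocytes, 6710.3 to 6978 for goblet cells and 2624 to 2724 for smooth muscle. Enteroendocrine markers summed to 429 to 464 FPKM and enteric neuron markers to 57.6 to 59.5 FPKM, with all 7 and all 8 genes above 1 FPKM in every file. Fibroblast markers summed to 352 to 360 FPKM and macrophage and dendritic cell markers to 169 to 179 FPKM. Mast cell markers summed to 12.7 to 15.3 FPKM with Mcpt4 at 0, and the 4 liver markers to 251 to 274 FPKM. In whole tissue, fewer cells of a type and less RNA per cell cannot be told apart.

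Most of the family was present. At or above 1 FPKM in every file were 69 of 87 members (79.3%). Beside them stood 48.5% of all 24346 symbols and 69.2% of the 17060 symbols with a mean above 0. Of the others, 9 were below 1 FPKM in every file and 9 crossed that level. The median member stood at 9.79 ± 0.251 FPKM, beside 1.23 ± 0.0232 FPKM for all symbols and 4.75 ± 0.00577 FPKM for the 17060 symbols with a mean above 0. The mean reached 100 FPKM in 6 members (6.90%), beside 2.59% of all symbols and 3.69% of those with a mean above 0. The whole family held 0.546% ± 0.00386 of the summed FPKM of a file. Of that, the first 6 genes summed to 859 FPKM, 36.8% of the family total of 2332 FPKM, and the first 20 to 1672 FPKM, 71.7% of it. By family, the median was 69.5 FPKM for the Arf genes, 42.9 FPKM for the Sar1 pair, 9.78 FPKM for the Rab genes and 4.71 FPKM for the Arl genes.

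The order of the first members was Arf1, Arf4, Rab25, Rab7, Rab2a and Rab1. Of the 86 pairs of neighbours in the whole order of levels, 9 pairs did not overlap over the 3 files. These were Arf1 and Arf4, Arf4 and Rab25, Rab25 and Rab7, Rab1 and Arl1, Arl1 and Arf6, Rab5b and Rab9, Rab9 and Rab15, Rab4a and Arl5a, and Rab33a and Rab39b. The other neighbours overlapped. A lack of overlap over 3 files is not a test, and no pair of neighbours was tested against counting error. Rab33a, at 0.619 FPKM, had under 10 fragments in all, and Rab9 and Rab15 had 315 and 663. The 9 pairs are therefore a description of these files and not an established order. The 42 members with a mean of at least 10 FPKM had a coefficient of variation between files of 0.912% to 16.2%, with a median of 6.83%.

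**Figure D1:**
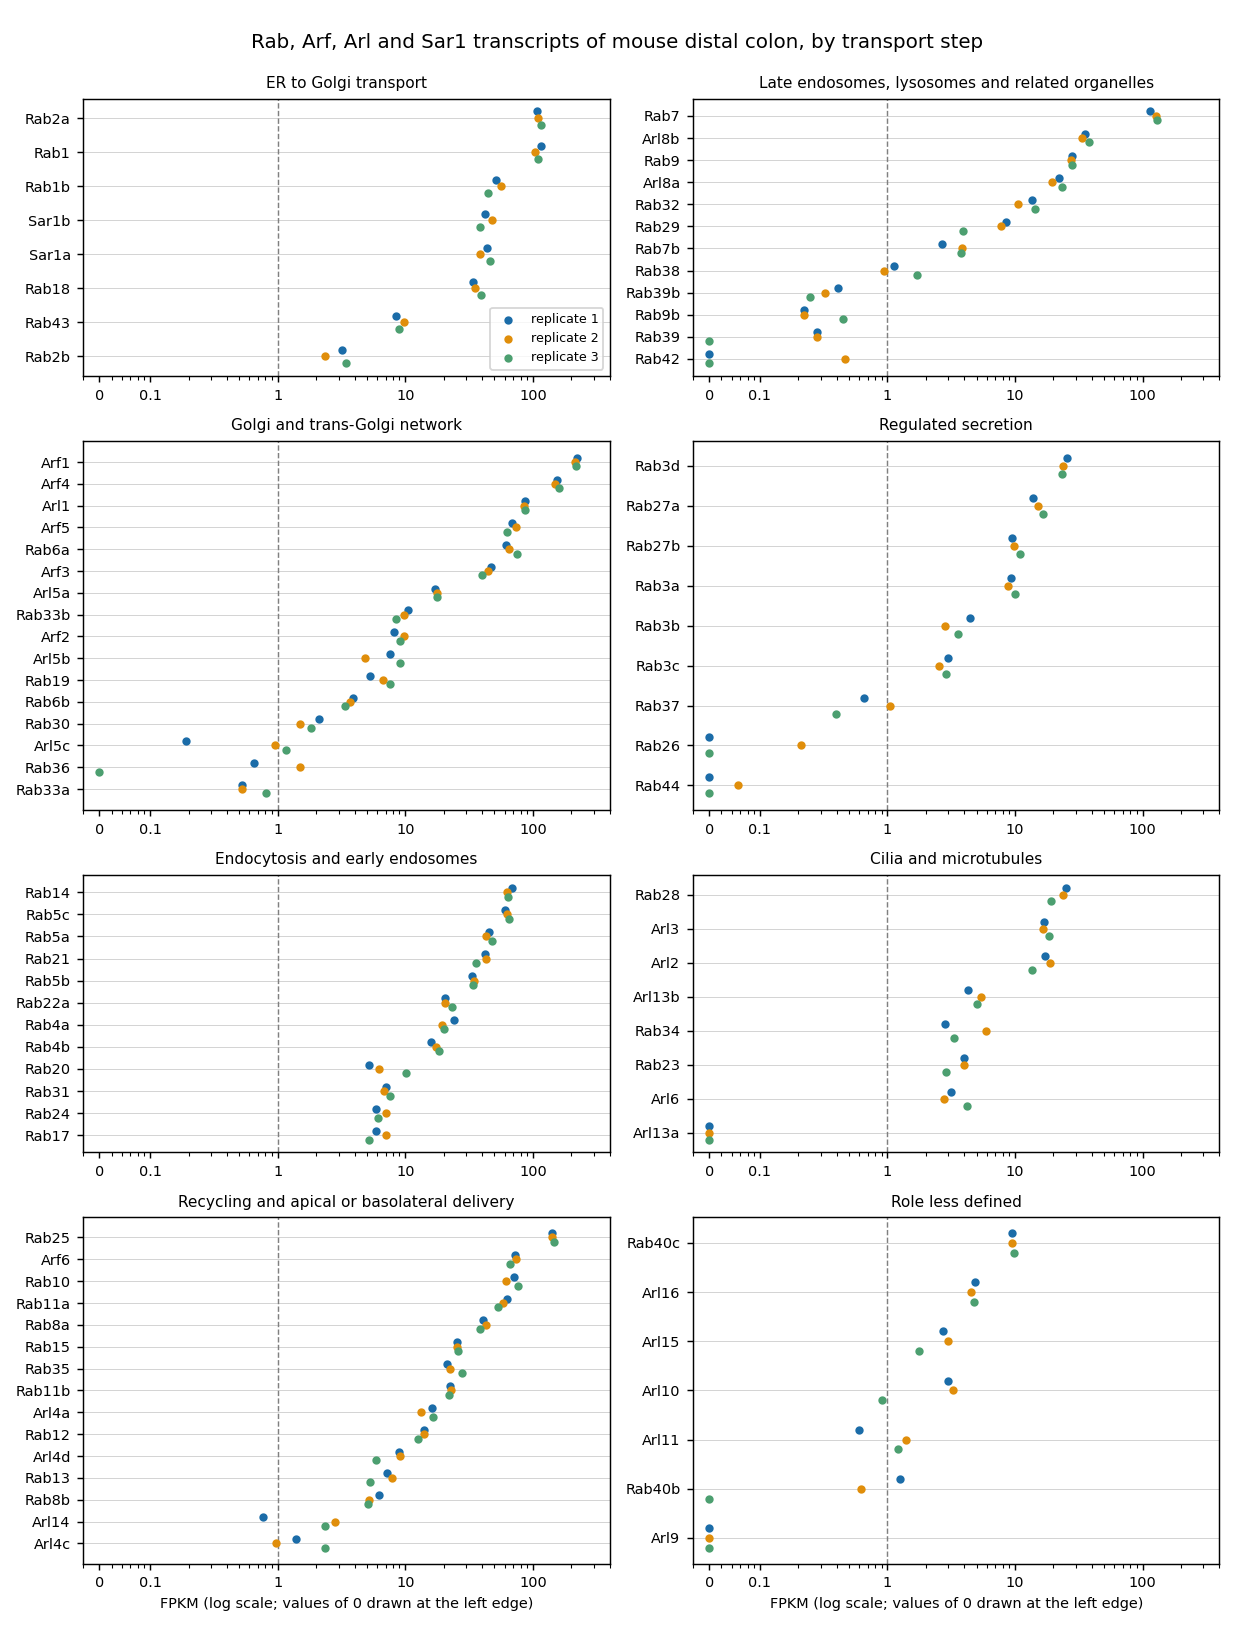
FPKM of each of the 87 genes in replicates 1, 2 and 3 (points), on a log axis with values of 0 at the left edge, in panels by transport step; the dashed line marks 1 FPKM. All genes of the ER to Golgi and the endocytosis panels lie above the line in every file, while the late endosome, regulated secretion and less defined panels hold most of the points below it.

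Transport from the endoplasmic reticulum (ER) to the Golgi was represented by 8 members, which summed to 405 FPKM, and none fell below 1 FPKM in any file. Rab2a, which acts in transport between the ER and the Golgi, had 108.5, 109 and 116 FPKM. Rab1, which tethers ER-derived vesicles, had 115, 103 and 109 FPKM, and its paralogue Rab1b had 51.4, 56.5 and 44.3 FPKM. Rab1 was thus above Rab1b in every file, by 2.18 ± 0.325 times, while Rab2a and Rab1 overlapped. Sar1a and Sar1b start the COPII coat that buds from the ER, and Sar1b is the form whose loss in human causes chylomicron retention disease. Sar1b had 42.2, 48.1 and 38.4 FPKM and Sar1a had 43.9, 38.5 and 46.2 FPKM. The pair could not be ordered: Sar1b led in 1 of 3 files and its mean share of the pair was 49.98% ± 5.15. Rab18, linked to lipid droplets and the ER, averaged 36.0 ± 2.71 FPKM. Rab43 averaged 9.05 ± 0.689 FPKM and Rab2b 2.97 ± 0.558 FPKM, so Rab2a made up 97.4% ± 0.429 of the Rab2 pair. For both of these lower genes most exonic bases also belong to another annotated gene. These are 85.4% of Rab43, to Gm45140 on the same strand, and 70.9% of Rab2b, to Gm43766 on the opposite strand. No level was listed under either of those symbols, so reads from the shared bases cannot be assigned to one gene or the other.

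Golgi and trans-Golgi network genes had the largest sum of the 8 classes, 693 FPKM over 16 members, of which 13 were at or above 1 FPKM in every file. Arf1, which recruits the COPI coat and the AP-1 adaptor, was the highest member of the whole family, with 221, 213 and 216 FPKM from 3129 fragments in all (chr11:59211412-59228267, GRCm38). Arf4 had 154, 149.6 and 159 FPKM (chr14:26638197-26657258), and the ratio of Arf1 to Arf4 was 1.41 ± 0.0390. These are the leading genes of the 2 Golgi classes of Arf proteins. Arf1 made up 80.4% ± 0.870 of class I, in which Arf3 averaged 43.7 ± 3.27 FPKM and Arf2, a gene that human lacks, 9.05 ± 0.837 FPKM. Arf4 made up 69.4% ± 2.29 of class II, in which Arf5 averaged 68.1 ± 5.32 FPKM. Of the exonic bases of Arf4, 14.6% lie opposite Pde12, which was at 6.82 FPKM.

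Arl1, which anchors golgin tethers at the trans-Golgi, had 86.5, 85.1 and 86.5 FPKM, with no overlap with its neighbours Rab1 and Arf6. In the Arl5 group, Arl5a averaged 17.5 ± 0.453 FPKM, Arl5b 7.18 ± 2.17 FPKM and Arl5c 0.762 ± 0.506 FPKM. Arl5b had 7.55, 4.85 and 9.14 FPKM, and replicate 2 lay lowest. Rab33b averaged 9.62 ± 1.07 FPKM and Rab33a 0.619 ± 0.158 FPKM. The remaining Golgi genes were Rab19 at 6.51 FPKM, Rab30 at 1.81 FPKM and Rab36 at 0.717 FPKM, the last of which was listed at 0 in replicate 3.

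Rab6a, which works in retrograde transport at the Golgi and in the exit of secretory vesicles, had 61.1, 65.1 and 74.9 FPKM. Rab6b, known as the neuronal form, had 3.88, 3.70 and 3.34 FPKM, and Rab6a made up 94.8% ± 0.859 of the pair. Rab6a was also the member in which the files tell apart 2 spliced forms of equal length, which differ in 1 alternative exon. Both exons are printed because their choice sets the protein made: they are 106 bases each, on the plus strand of GRCm38, at chr7:100629838-100629943 for NM_024287 and chr7:100629666-100629771 for NM_001163663. Capitals mark the 30 bases at which they differ, and of 35 codons compared 3 encode another amino acid.
Rab6a NM_024287 exon: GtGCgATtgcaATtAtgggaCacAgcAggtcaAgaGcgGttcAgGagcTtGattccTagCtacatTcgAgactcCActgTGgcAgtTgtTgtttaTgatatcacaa
Rab6a NM_001163663 exon: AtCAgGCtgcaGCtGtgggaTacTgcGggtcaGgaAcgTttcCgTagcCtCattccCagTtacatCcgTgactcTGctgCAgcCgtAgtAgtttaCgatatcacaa
NM_024287 carried 50.9, 54.2 and 49.2 FPKM and NM_001163663 carried 10.2, 10.9 and 25.7 FPKM. NM_024287 was the higher form in every file, with 83.3%, 83.3% and 65.7% of the gene. Replicate 3, which has the lowest depth, gave the other form a larger share than replicates 1 and 2 did. Mrpl48, at 32.1 FPKM, lies opposite 21.3% of the exonic bases of Rab6a.

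The division between isoforms was also counted over the whole family. The annotation used in the files gives 71 members 1 isoform and 16 members several. Of the 15 multi-isoform members with a mean of at least 1 FPKM, 1 (Rab43) kept 2 isoforms at 20% or above in each file. Beside it stood 480 of the 3858 such symbols in all (12.4%). A count over 15 members is too small to set the family apart from that share. Rab6a fell short, as NM_001163663 held 16.7% in replicates 1 and 2. In Rab43 the noncoding transcript NR_104478 held 76.0%, 79.4% and 31.0% and the coding NM_001039394 held 23.9%, 20.6% and 68.9%, so which of them led changed with the file. Rab7 showed NM_009005 at 77.0%, 75.3% and 100% and NM_001293653 at 22.9%, 23.5% and 0.00437%. Rab17, singled out after its values were seen, showed NM_008998 at 95.5%, 64.5% and 66.8%. Rab3a gave NM_009001 81.1%, 51.6% and 100% of its level, and Arl4a gave NM_007487 100%, 79.3% and 63.2%. For these genes the gene level was steadier than its division into isoforms. Arf1 was settled: NM_007476 held at least 98.6% in each file.

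**Figure D2:**
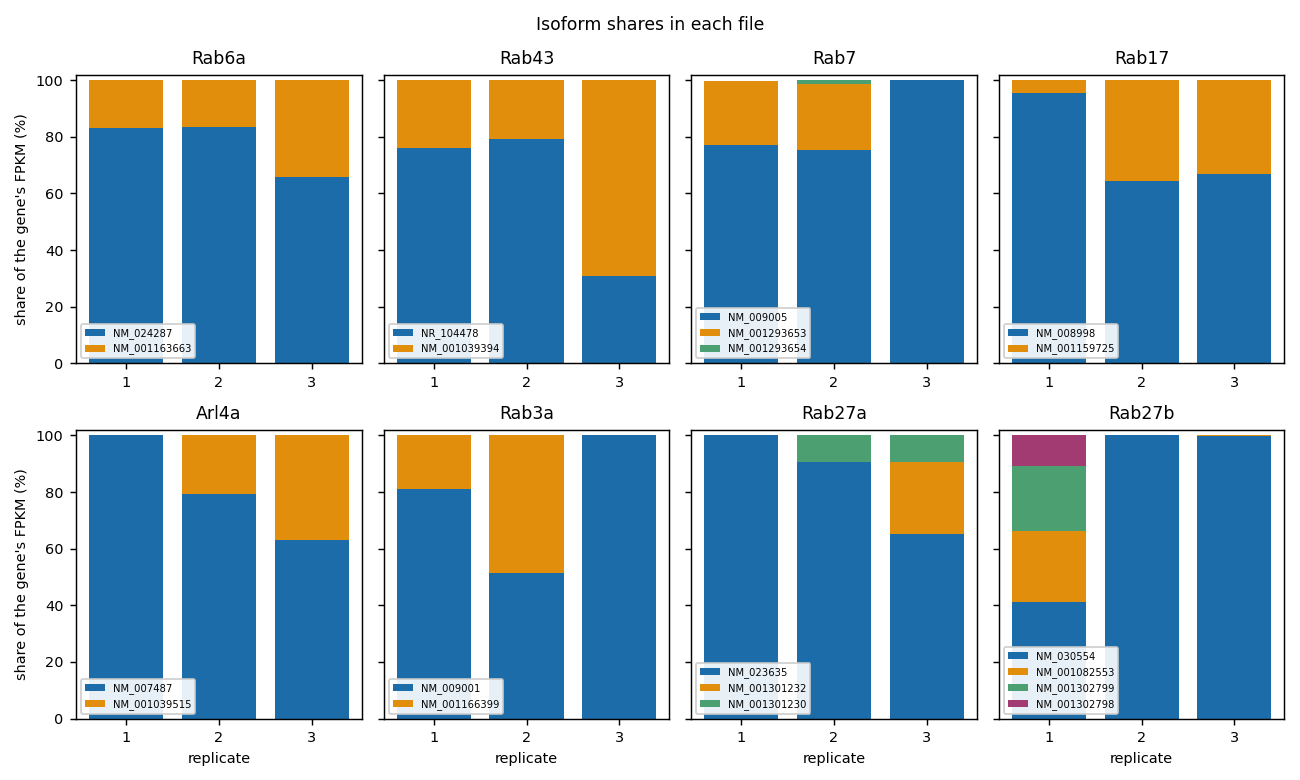
Share of the FPKM of a gene (%) held by each isoform in replicates 1, 2 and 3, for 8 members with several isoforms; isoforms under 1% in every file are not drawn. Rab6a keeps NM_024287 as the higher form in every file, Rab43 changes its leading form in replicate 3, and Rab27b splits over 4 forms in replicate 1 only.

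Endocytosis and early endosomes had 12 members, all at or above 1 FPKM in every file, summing to 333 FPKM. The Rab5 proteins drive fusion of endocytic vesicles, and their level was spread over 3 genes. Rab5c had 60.1, 63.2 and 65.3 FPKM, Rab5a had 45.2, 43.1 and 47.5 FPKM and Rab5b had 33.4, 34.4 and 33.6 FPKM. The 3 genes did not overlap over the files, and Rab5c held 44.3% ± 0.832 of the group. Rab14, which moves cargo between the trans-Golgi network and endosomes, led this step with Rab5c at 64.7 ± 3.33 FPKM, and the pair overlapped. Rab21, which carries integrins, averaged 40.2 ± 3.82 FPKM. Rab22a averaged 21.3 ± 1.54 FPKM and its paralogue Rab31 7.14 ± 0.373 FPKM. Rab4a and Rab4b, of the fast recycling route, averaged 21.1 ± 2.44 and 17.2 ± 1.18 FPKM. However, 85.2% of the exonic bases of Rab4b also belong to Gm21983 on the same strand, for which no level was listed. Rab20 averaged 7.15 ± 2.58 FPKM, and Rab17, an epithelial Rab of transcytosis, averaged 6.03 ± 0.925 FPKM. Rab24, linked to autophagy, averaged 6.35 ± 0.572 FPKM, and 66.4% of its exonic bases lie opposite Prelid1, which was at 193 FPKM.

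Recycling and delivery to the apical or basolateral surface summed to 507 FPKM over 15 members, of which 13 were at or above 1 FPKM in every file. Rab25, a Rab11 relative made mainly in epithelia and placed on the apical recycling endosome, was the third gene of the whole family. It had 141, 142 and 147 FPKM from 1123 fragments in all (chr3:88542029-88548279, GRCm38). Rab11a, the form of the same endosome found in most tissues, had 62.4, 58.5 and 53.7 FPKM from 1137 fragments (chr9:64715300-64737756). Rab11b had 22.5, 22.7 and 22.01 FPKM. Rab25 was above Rab11a in every file by 2.47 ± 0.241 times, and Rab11a above Rab11b by 2.60 ± 0.170 times, so Rab25 made up 64.0% ± 1.81 of the Rab11 group. Rab11b has a processed pseudogene, Rab11b-ps2, that matches 10.7% of its transcript.

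Rab8a, which carries vesicles to the apical surface and the cilium, had 40.9, 43.1 and 38.3 FPKM from 675 fragments (chr8:72161200-72181366). Its paralogue Rab8b had 6.23, 5.18 and 5.08 FPKM, and Rab8a made up 88.1% ± 1.24 of the pair. Rab11a stood 1.43 ± 0.0863 times above Rab8a. Arl14, which in human dendritic cells acts in the movement of MHC class II vesicles, had 0.765, 2.81 and 2.33 FPKM (chr3:69222419-69223618). These values rest on 17.0 fragments in all, and replicate 1 was below 1 FPKM while replicates 2 and 3 were above. Together the 4 apical genes summed to 244 ± 2.51 FPKM, with Arl14 contributing the least. Rab25, an epithelial gene, stood beside general epithelial markers of 5035 to 5105 FPKM in sum, and their part in its level was not tested.

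The stretches just before the starts of these 4 genes are printed to show how they differ in CG content. Each is the 250 bases upstream of the start in the RefSeq table for GRCm38.p6, 5′ to 3′ on the strand of the gene, with every CG dinucleotide in capitals. The positions are chr3:88548280-88548529 on the minus strand for Rab25, chr9:64737757-64738006 on the minus strand for Rab11a, chr8:72160950-72161199 on the plus strand for Rab8a and chr3:69222169-69222418 on the plus strand for Arl14.
Rab25: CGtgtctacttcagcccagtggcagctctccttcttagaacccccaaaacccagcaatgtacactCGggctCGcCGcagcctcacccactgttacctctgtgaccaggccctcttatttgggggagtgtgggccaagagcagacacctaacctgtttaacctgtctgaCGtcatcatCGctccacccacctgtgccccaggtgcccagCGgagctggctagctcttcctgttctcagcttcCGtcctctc
Rab11a: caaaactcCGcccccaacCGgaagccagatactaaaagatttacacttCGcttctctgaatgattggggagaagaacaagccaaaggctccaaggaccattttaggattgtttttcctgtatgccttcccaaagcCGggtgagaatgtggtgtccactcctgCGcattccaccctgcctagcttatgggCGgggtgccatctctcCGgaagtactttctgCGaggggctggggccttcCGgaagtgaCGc
Rab8a: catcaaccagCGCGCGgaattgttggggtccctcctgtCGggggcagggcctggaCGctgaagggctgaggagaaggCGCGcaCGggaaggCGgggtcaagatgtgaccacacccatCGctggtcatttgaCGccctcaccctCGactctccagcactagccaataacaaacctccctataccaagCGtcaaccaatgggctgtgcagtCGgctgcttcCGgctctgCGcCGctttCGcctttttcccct
Arl14: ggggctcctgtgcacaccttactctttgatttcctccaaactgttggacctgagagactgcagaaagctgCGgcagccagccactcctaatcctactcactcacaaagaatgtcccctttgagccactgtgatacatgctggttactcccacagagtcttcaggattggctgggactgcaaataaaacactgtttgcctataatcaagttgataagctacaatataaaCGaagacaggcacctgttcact
CG reads the same on both strands. It occurs 8 times before Rab25, 10 times before Rab11a, 18 times before Rab8a and 2 times before Arl14. Such a stretch was matched for 70 members and 16570 other genes, where the RefSeq and file starts lay within 500 bases. The median count was 18 over the members and 10 over the other genes, and 28.6% of the members and 51.4% of the other genes had 10 or fewer. By level, the members had a median of 8 CG under 1 FPKM (7 genes), 15.5 from 1 to under 10 FPKM (28 genes), 21 from 10 to under 50 FPKM (23 genes) and 23 at 50 FPKM or more (12 genes). Over the same classes the other genes had medians of 3, 15, 17 and 15. Rab25, Rab7 and Rab11a were the 3 matched members at 50 FPKM or more with 10 or fewer CG. They were 25% of 12, beside 30.1% of 995 other genes at that level. Rab2a, Rab1 and Arf6, also at 50 FPKM or more, had no matched stretch. These counts describe letters in a window and name no factor or site.

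**Figure D3:**
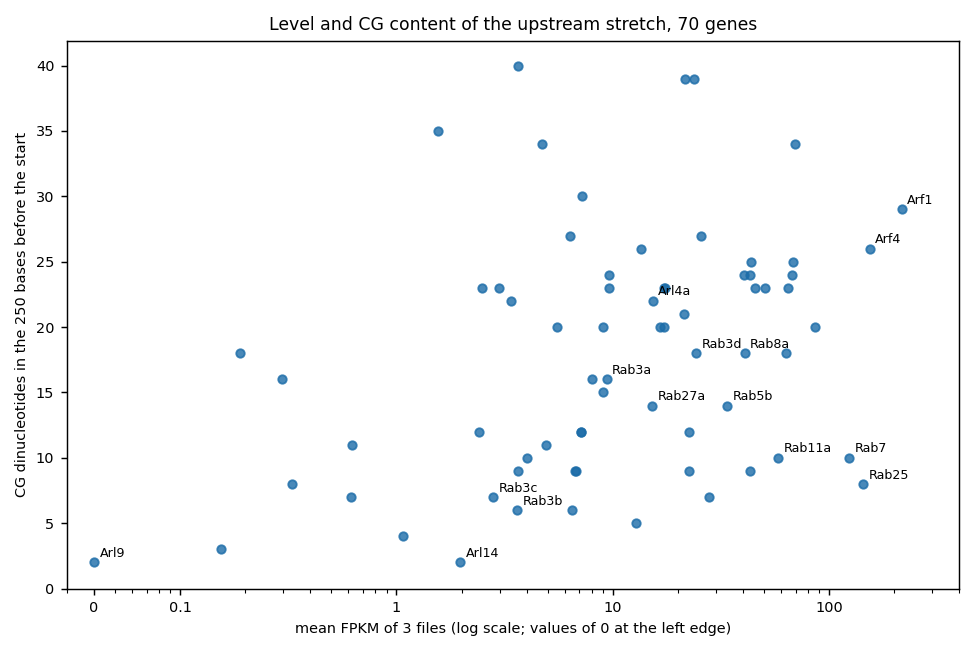
CG dinucleotides in the 250 bases before the start against the mean FPKM of the 3 files (log axis, values of 0 at the left edge), each point 1 of 70 genes. Rab25, Rab7 and Rab11a lie at the lower right, with 8, 10 and 10 CG, below Arf1 and Arf4 with 29 and 26.

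Arf6, the Arf of the plasma membrane and of endosomal recycling, had 72.9, 73.2 and 66.5 FPKM. Rab10, which carries basolateral cargo in epithelial cell lines, had 70.8, 61.9 and 76.1 FPKM, and overlapped Arf6. Rab15 averaged 25.5 ± 0.268 FPKM, Rab35 23.7 ± 3.54 FPKM and Rab12 13.5 ± 0.729 FPKM. Rab13, which acts at tight junctions, averaged 6.77 ± 1.31 FPKM. Among the Arl4 proteins, which bring Arf exchange factors to the plasma membrane, Arl4a averaged 15.3 ± 1.84 FPKM, Arl4d 7.98 ± 1.78 FPKM and Arl4c 1.56 ± 0.693 FPKM. Arl4a led in every file with 61.5% ± 4.98 of that group.

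Late endosomes, lysosomes and related organelles held 12 members with a sum of 234 FPKM, of which 7 were at or above 1 FPKM in every file. Rab7, which directs fusion of late endosomes with lysosomes, had 114, 128 and 129 FPKM (chr6:87999106-88045270), 97.3% ± 0.319 of the Rab7 pair. Rab7b averaged 3.42 ± 0.629 FPKM. A processed pseudogene, Rab7-ps1, matches 28.8% of the Rab7 transcript. Arl8b and Arl8a couple lysosomes to kinesin, and averaged 35.6 ± 2.14 and 21.6 ± 2.07 FPKM. Rab9, which acts in return from late endosomes to the trans-Golgi network, averaged 27.9 ± 0.292 FPKM, while Rab9b was at 0.296 ± 0.131 FPKM. Rab32, of lysosome-related organelles such as melanosomes, averaged 12.8 ± 2.08 FPKM and Rab38 1.25 ± 0.402 FPKM. Rab29 had 8.49, 7.73 and 3.91 FPKM, with replicate 3 the lowest. Rab39b averaged 0.328 ± 0.0800 FPKM and Rab39 0.188 ± 0.163 FPKM. Rab42 was seen through 1.00 fragment, in replicate 2.

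The Rab3 family and the Rab27 pair control the docking of secretory granules and synaptic vesicles. In this tissue Rab3d was ahead of the other Rab3 genes. Rab3d, known from granules of exocrine glands, had 25.7, 23.7 and 23.2 FPKM from 799 fragments in all. Rab3a, the main form of synaptic vesicles in brain, had 9.27, 8.85 and 10.03 FPKM from 104 fragments. Rab3b had 4.44, 2.85 and 3.57 FPKM and Rab3c had 2.96, 2.56 and 2.90 FPKM. Rab3d was above Rab3a in every file by 2.59 ± 0.241 times, Rab3a did not overlap the lower pair, and Rab3b and Rab3c overlapped. The family summed to 40.0 ± 2.23 FPKM, of which Rab3d made up 60.5% ± 1.98. Beside them stood enteroendocrine markers of 429 to 464 FPKM and enteric neuron markers of 57.6 to 59.5 FPKM in sum, and the part of either cell type in the Rab3 levels was not tested.

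Rab27a, of melanosomes and cytotoxic granules, had 13.8, 15.0 and 16.6 FPKM. Rab27b had 9.53, 9.84 and 10.98 FPKM. Rab27a was above Rab27b in every file by 1.497 ± 0.0397 times, and the pair summed to 25.3 ± 2.12 FPKM. Rab25 stood 5.93 ± 0.420 times above Rab3d, the first of the secretory group. Regulated secretion as a whole had 9 members and a sum of 66.1 FPKM, and 6 of them, the Rab3 genes and the Rab27 pair, were at or above 1 FPKM in every file. Rab37 had 0.651, 1.04 and 0.396 FPKM. Rab26 and Rab44 were seen through 1.00 fragment each, both in replicate 2.

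Cilia and microtubules had 8 members with a sum of 72.3 FPKM, and 7 were at or above 1 FPKM in every file. Rab28 averaged 22.6 ± 3.08 FPKM, Arl3, which releases lipid-modified proteins into the cilium, 17.2 ± 0.960 FPKM, and Arl2, which acts in tubulin folding, 16.6 ± 2.62 FPKM. Arl13b, the exchange factor of Arl3 in the cilium, averaged 4.90 ± 0.598 FPKM, Rab34 4.01 ± 1.65 FPKM, Rab23, a regulator of Hedgehog signalling, 3.63 ± 0.631 FPKM and Arl6, the recruiter of the BBSome coat, 3.39 ± 0.746 FPKM. Arl13a was listed at 0 in every file, where 3 fragments over all files would have given 0.216 FPKM. The 7 genes of less defined role ran from Rab40c at 9.57 ± 0.186 FPKM and Arl16 at 4.71 ± 0.147 FPKM through Arl15 (2.49 FPKM), Arl10 (2.40 FPKM), Arl11 (1.08 FPKM) and Rab40b (0.622 FPKM) to Arl9. Arl9 was listed at 0 in every file, where 3 fragments over all files would have given 1.43 FPKM. A level up to that value could have gone unseen at this depth. Of the exonic bases of Arl9, 65.2% lie opposite 1700112J05Rik, which was at 0 FPKM.

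Of the 87 genes, 53 fall into 23 groups of close paralogues. The same member led in every file in 22 groups, all but the Sar1 pair. The leading member and the next did not overlap over the files in 21 groups, the exceptions being the Sar1 and Rab39 pairs. The median share of the leading member was 70.9%. The division ran from near equal (Sar1 at 49.98%, Rab4 at 55.0%, Rab5 at 44.3% of 3 genes) to complete or almost complete (Arl13 at 100%, with Arl13a listed at 0, then Rab9 at 99.0%, Rab2 at 97.4%, Rab7 at 97.3%, Rab6 at 94.8%, Rab40 at 94.1%, Rab33 at 93.8%, Rab32 and Rab38 at 91.2%). The Rab22, Arl5, Rab1, Arl8 and Rab27 groups lay between, at 74.8%, 69.1%, 68.3%, 62.2% and 59.9%.

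**Figure D4:**
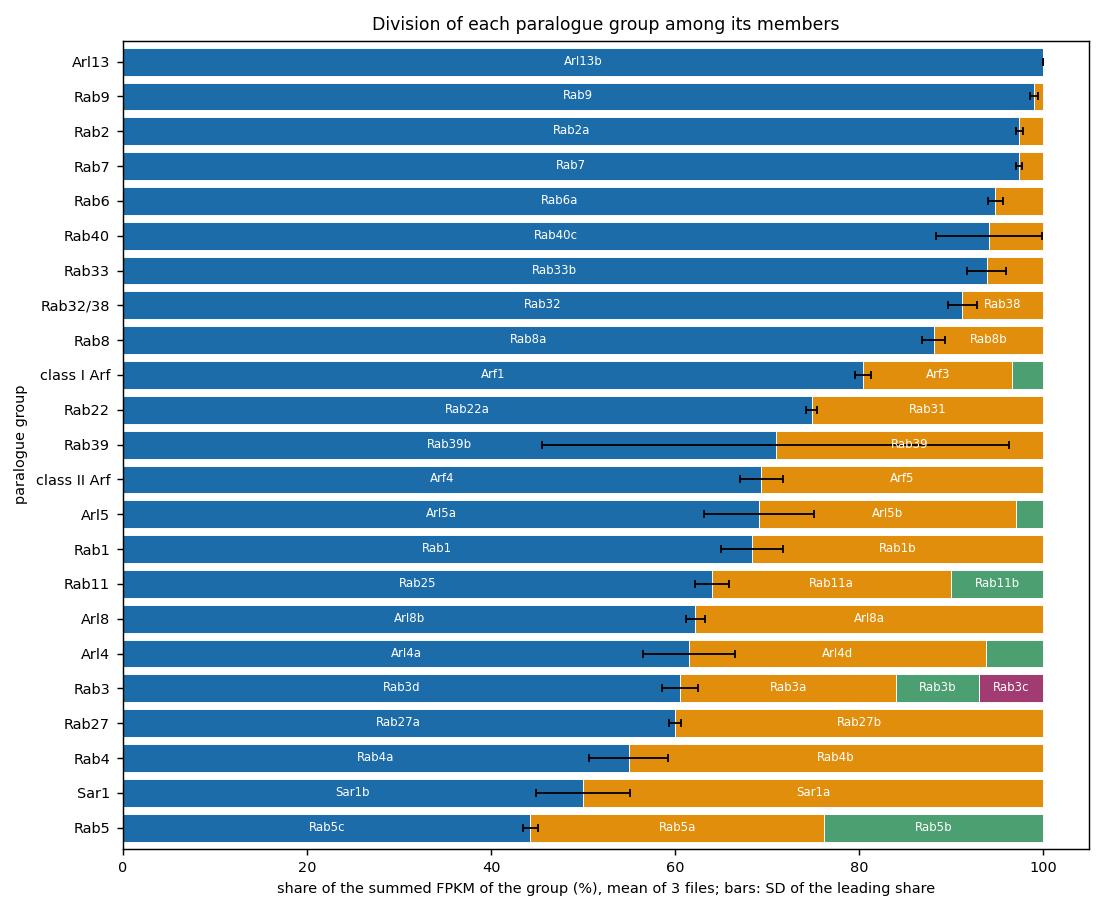
Share of the summed FPKM (%) held by each member of the 23 paralogue groups, mean of 3 files, with the SD of the leading share as a black bar. Rab25 takes 64.0% of the Rab11 group and Rab3d 60.5% of the Rab3 group, while the Sar1 pair divides at 49.98%.

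The regulators and partners of these GTPases were also measured, as 13 lists chosen with earlier results of these data known. For the counts that follow, the share over all 24346 symbols at or above 1 FPKM in every file was 48.5%. Over the symbols with a mean above 0 it was 69.2%. Chaperones and prenylation factors were all present (10 of 10 at or above 1 FPKM in every file), led by Gdi2, which extracts Rab proteins from membranes, with 155, 159.7 and 150.4 FPKM. Rabac1 averaged 64.9 ± 5.37 FPKM and Arl6ip5 48.5 ± 0.883 FPKM. Among Rab exchange factors 36 of 39 were at or above 1 FPKM in every file. Trappc1 (41.8 FPKM), Trappc2l (39.3 FPKM) and Ccz1 (33.3 FPKM) led them, and Dennd2c was at 0.515 FPKM. Rab GTPase activating proteins counted 33 of 34, led by Tbc1d20 (19.8 FPKM), Sgsm3 (18.2 FPKM) and Rabgap1l (17.0 FPKM). These regulator lists had medians of 6.81 ± 0.0630 FPKM for exchange factors and 6.64 ± 0.514 FPKM for activating proteins, beside 9.79 FPKM for the GTPases.

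Of 17 apical recycling effectors, the partners of Rab11a, Rab25 and Rab8a, 16 were at or above 1 FPKM in every file. Vamp8, a SNARE of apical exocytosis, had 101, 116 and 121 FPKM. Myo5c averaged 24.3 FPKM and Rab11fip1, an effector shared by Rab11a and Rab25, 22.04 ± 0.699 FPKM. Vamp7 was listed at 0 in every file. The exocyst, the tether of Rab11 and Rab8 vesicles, had 9 of 9 subunits present, led by Exoc5 (17.5 FPKM), Exoc7 (10.9 FPKM) and Exoc6 (10.5 FPKM).

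The effectors of Rab3 and Rab27 were the list with the lowest median of the 13, 1.56 ± 0.304 FPKM, and 8 of 16 were at or above 1 FPKM in every file. Both values were near those of all symbols, a median of 1.23 FPKM and a share of 48.5%. Sytl1 had 22.8, 21.6 and 25.1 FPKM, Mlph averaged 14.3 ± 0.529 FPKM and Sytl2 9.70 ± 0.917 FPKM. All 3 bind Rab27. Below 1 FPKM in every file were Myrip (0.559 FPKM), Sytl5 (0.554 FPKM), Rims3 (0.546 FPKM), Rph3a (0.332 FPKM), Unc13a (0.273 FPKM) and Sytl3 (0.238 FPKM). Rph3a is a Rab3 effector of neurons, and Rims3 and Unc13a belong to the presynaptic active zone. The Sytl genes of this list stood on both sides, Sytl1 and Sytl2 above 1 FPKM in every file and Sytl5 and Sytl3 below. Exph5 (6.31 FPKM) and Rph3al (5.40 FPKM) were also above 1 FPKM in every file. The low genes are thus not only neuronal or presynaptic ones. The other Rims and Unc13 genes of the list were higher. Unc13b (6.19 FPKM), Rims1 (2.81 FPKM) and Unc13d (1.84 FPKM) were above 1 FPKM in every file. Rims2 (1.24 FPKM) and Rims4 (1.19 FPKM) fell below 1 FPKM in replicate 2 only.

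The lists of the coats that Arf1 and Sar1 recruit differed in median level. COPI, the coat of Arf1, had 9 of 9 subunits present and the highest median of the 13 lists, 52.7 ± 2.17 FPKM, with Cope at 73.5 ± 10.3 FPKM, Arcn1 at 71.4 ± 2.71 FPKM and Copz1 at 68.3 ± 2.59 FPKM. COPII with the Sar1 exchange factor had 11 of 12 present and a median of 11.6 ± 0.313 FPKM, with Sec13 at 39.9 ± 2.49 FPKM, Sec31a at 38.5 ± 1.41 FPKM and Sec23a at 25.2 ± 2.07 FPKM. Sec31b was at 0.282 ± 0.0688 FPKM. The medians of the 2 lists lay further apart than their spread over the files. Genes were counted singly, and the COPII list holds Sec23a with Sec23b and Sec24a to Sec24d (10.7 to 22.6 FPKM). The COPI list has such sets in Copg1 with Copg2 and Copz1 with Copz2. The medians therefore do not compare the 2 coats subunit by subunit.

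Early endosome effectors were all present (10 of 10), led by Appl2 (47.1 FPKM), Pik3c3 (17.6 FPKM) and Eea1 (10.6 FPKM), and so were late endosome and lysosome effectors (11 of 11), led by Vps41 (25.8 FPKM), Vps11 (9.63 FPKM) and Plekhm1 (7.99 FPKM). Arf exchange factors counted 13 of 15, with Arfgef1 (24.5 FPKM), Cyth2 (14.6 FPKM) and Fbxo8 (11.9 FPKM) first and Iqsec3 (0.317 FPKM) and Psd2 (0.0815 FPKM) below 1 FPKM. Arf GTPase activating proteins counted 21 of the 26 measured. Arfgap3 (59.9 FPKM), Smap1 (42.6 FPKM) and Acap2 (25.7 FPKM) led, and Arap3 (0.744 FPKM), Elmod1 (0.617 FPKM), Asap3 (0.603 FPKM), Acap1 (0.459 FPKM) and Agap2 (0.409 FPKM) were below 1 FPKM in every file. Of the Arf and Arl effectors and adaptors 21 of 22 were present, with Ap1m2, the epithelial subunit of the AP-1 adaptor, at 50.8 FPKM, Arl2bp at 40.2 FPKM and Ap1s1 at 36.2 FPKM.

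**Figure D5:**
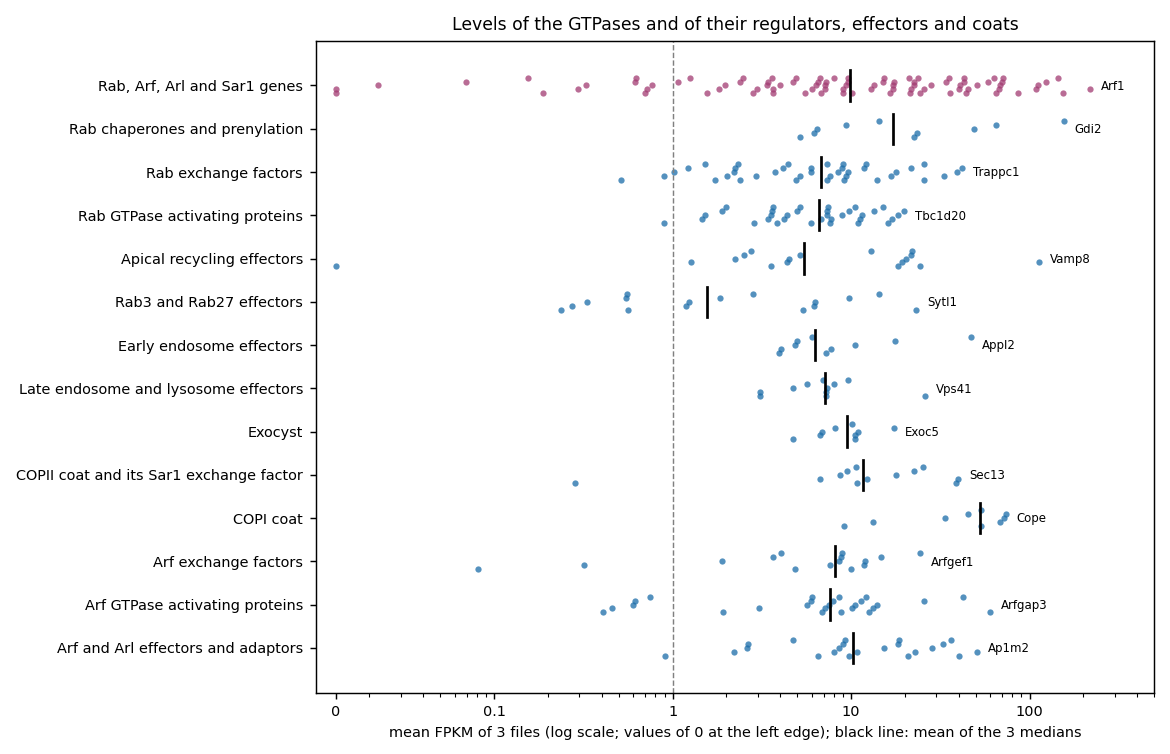
Mean FPKM of the 3 files (log axis, values of 0 at the left edge) for the 87 GTPase genes (purple) and for the genes of 13 lists of their regulators, effectors and coats (blue), with the highest gene named and the mean of the 3 per-file medians as a black line. COPI has the highest line at 52.7 FPKM and the Rab3 and Rab27 effectors the lowest at 1.56 FPKM.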

How the data were processed

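Libraries of polyadenylated distal colon RNA were made with the Illumina TruSeq RNA kit after TRIzol extraction, per the labels. The deposited tables list 34535 isoforms with their FPKM and FPKM confidence bounds, per the file headers. The submitters' processing notes name Cufflinks 2.2.1, Bowtie2 2.3.4.3 and TopHat2 2.1.1. Use of strand and of multi-mapped reads was not given in the sources used here. A coverage signal column was also deposited by the authors and was not used. The notes name GRCm39, but the positions are those of GRCm38: 85 of 86 matched members started or ended within 1000 bases of RefSeq GRCm38.p6. File starts were converted to count from 1.

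Isoforms were joined by ID and FPKM summed per symbol. Depth was recovered from the bounds: of genes with 1 isoform of at least 800 bases and at most 30 fragments, 64.1% to 64.3% of values lay within 0.01 of a whole fragment. Limits for values of 0 take 3 fragments and cover counting error only. Files were compared by a chi-square test on sampling variances, which was tested on simulated data. No count model was used, since the tables hold FPKM. The deposited file names share index and lane and differ in the last number.

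Members and lists were chosen with earlier results of these data known. Named members are the 20 highest, the apical, Rab3 and Rab27 genes, the 2 highest of each role, all members of paralogue groups, those at 0, and those with several isoforms or differing between files; the remaining ones are named to account for every gene. Named list genes are the 3 highest and those below 1 FPKM in every file, with further genes of the coat lists and of the Rab3 and Rab27 list. Of the list genes, Rp2 was not matched. Overlaps and copies (at least 100 bases at 97% identity, BLAST+ 2.17.0) come from GENCODE for GRCm38. Alternatives were TPM, the highest isoform, other thresholds and pseudocounts, and leaving out each file. Scripts ran in Python 3.11.15 with SciPy 1.17.1, pandas 2.3.3, matplotlib 3.10.9 and numpy 2.4.6.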

Additional observations from a re-analysis of the deposited data

How the results depend on the processing

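The median of the members was 22.9 as TPM (all values scaled by 2.34), 9.45 FPKM from the highest isoform, 16.2 FPKM over members with a mean of at least 1 FPKM, and 10.4 or 8.21 FPKM from mean log2(FPKM + 1) or log2(FPKM + 0.1). The highest isoform put the family at 0.557% of the summed FPKM. The count of members with at least 2 isoforms above the share was 2 at 10% (Rab43 and Rab6a) and 0 at 30%. It ran from 1 to 3 with a file left out: Arl4a and Rab17 joined Rab43 without replicate 1, and Rab7 joined it without replicate 3. The median leading share ran from 71.96% to 75.2% with a file left out, above the 70.9% of all 3 files. Members at or above 1 FPKM in every file were 75 at a threshold of 0.5, 55 at 5, and 60 of 76 without the 11 that share at least 10% of their exonic bases with another gene, an alternative chosen after seeing the data. No member differed between files under any filter tried or with any file left out, where 0 to 5 members passed an unadjusted p of 0.05. Leaving out a file moved 5 members by over 1.5 times: Rab40b without replicate 1, and Rab26, Rab36, Rab42 and Rab44 without replicate 2, all with means of at most 0.717 FPKM. Depth limits genes such as Arl14, and 9 members had under 10 fragments in all. No paired analysis was possible because the series has 1 group.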
